A study of Saccharomyces cerevisiae with 18 samples.

Results

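The cytosolic small-subunit ribosomal protein genes of budding yeast (Saccharomyces cerevisiae) were described as a set of 56 open reading frames (ORFs) among the 6606 of the deposited table. The members were chosen by name, as the RPS genes with both their A and B copies. No measured value is part of that rule, although earlier results of these data were known when the set was chosen. All 56 were present in the table and all passed the filter on low counts, against 2856 of all 6606 ORFs (43.2%). They make 32 proteins: 8 are encoded by a single gene and 24 by a pair of near-identical paralogs. The value of each ORF is an estimated count over its last 200 bases, and the highest value in the table, its ceiling, is 1 above that window length.

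The small subunit of the ribosome binds the messenger RNA and holds the site where codons meet transfer RNAs, and its proteins fold and stabilise the ribosomal RNA of that subunit. Budding yeast kept many ribosomal protein genes in duplicate after an ancient doubling of its genome, and the copies encode identical or nearly identical proteins. Transcription of these genes is high in growing cells, and the factors Rap1, Fhl1, Ifh1 and Sfp1 couple it to nutrients through the TOR and protein kinase A pathways.

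Poly-A RNA was sequenced from cells in log phase in YPD, a rich glucose medium, at 30 °C without G418, over optical densities between 0.2 and 1.0. The 4 mutant groups were diploids heterozygous for 1 chromosome I gene each, namely SEO1 (YAL067C), GIP4 (YAL031C), FUN26 (YAL022C) or FUN14 (YAL008W), with 3 libraries each. The wild-type group had 6 libraries. The labels name neither the allele at the affected gene nor separate cultures or clones, so a p-value here reflects library-to-library spread, part or all of which may be technical.

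Several features of the libraries bear on every comparison below. The counts of wild-type replicates 1 and 2 agreed within sampling noise, at a chi-square of 0.969 per ORF over 2513 ORFs. They were averaged and counted as 1 sample, so the wild-type had n = 5. The 26 other pairs within groups ranged from 1.33 to 9.61 and the 126 pairs across groups from 1.34 to 12.6. Libraries of a group were thus not always the closest to each other. Wild-type replicate 3 stood at 7.32 to 9.61 from other wild-type libraries and at 3.74 to 12.6 from mutant libraries. The strain background on every label is BY4741, a haploid of mating type a, whereas the record of the series calls all strains diploid and the wild-type columns carry the name BY4743. The 6 a-specific mating genes summed to between 955 and 1617 CPM (counts per 1e6 of the scaled library total) in the wild-type libraries and to between 16.0 and 174 CPM in the 12 mutant libraries. The 11 haploid-specific genes summed to between 1029 and 1699 CPM and to between 52.2 and 283 CPM in the same groups. Wild-type against heterozygote therefore cannot be told apart from this difference in mating-type expression. Of the affected genes, FUN14 stood at 164 ± 28.7 CPM in its own strain (SD, n = 3) and 309 ± 51.2 in wild-type (n = 5), FUN26 at 136 ± 65.0 and 269 ± 117, and GIP4 at 9.79 ± 9.02 and 57.0 ± 22.7. SEO1 had 4 counts in all, each in wild-type, and checks no label.

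Because the count covers only the 3′ end of each ORF, the copies of a pair are told apart only by the bases that differ there. The last 200 bases of each member were read from the R64 reference assembly, since the build behind the table is not given in the sources used here. Of the 56 members, 10 had the same start and end in the table as in R64, 44 had the same length at shifted coordinates (median shift 2 bases, largest 358), and RPS27A and RPS23A had another length. Across the 24 pairs the windows differed at a median of 13 positions. The Rps6, Rps24 and Rps27 pairs are shown because they run from few differences to many, at 2, 5 and 36 positions. Capitals mark the bases that differ between the copies, each sequence is written 5′ to 3′ on the coding strand, and all come from RefSeq R64. RPS24A lies at chrV:306997-307196 on the plus strand, RPS24B at chrIX:231553-231752 on the minus strand, RPS6A at chrXVI:377291-377490 on the minus strand, RPS6B at chrII:591712-591911 on the minus strand, RPS27A at chrXI:159013-159212 on the plus strand and RPS27B at chrVIII:147871-148070 on the minus strand.
RPS24A: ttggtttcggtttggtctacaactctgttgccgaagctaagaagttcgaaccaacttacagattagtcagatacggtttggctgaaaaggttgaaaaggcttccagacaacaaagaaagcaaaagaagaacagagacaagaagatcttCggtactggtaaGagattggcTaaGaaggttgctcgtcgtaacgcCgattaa
RPS24B: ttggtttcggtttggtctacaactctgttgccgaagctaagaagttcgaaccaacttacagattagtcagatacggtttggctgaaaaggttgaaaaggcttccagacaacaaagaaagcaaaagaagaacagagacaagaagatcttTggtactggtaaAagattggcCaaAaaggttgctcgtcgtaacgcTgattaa
RPS6A: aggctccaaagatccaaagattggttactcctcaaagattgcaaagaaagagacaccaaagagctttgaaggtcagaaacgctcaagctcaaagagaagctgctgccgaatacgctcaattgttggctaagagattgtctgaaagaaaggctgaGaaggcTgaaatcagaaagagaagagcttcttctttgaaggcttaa
RPS6B: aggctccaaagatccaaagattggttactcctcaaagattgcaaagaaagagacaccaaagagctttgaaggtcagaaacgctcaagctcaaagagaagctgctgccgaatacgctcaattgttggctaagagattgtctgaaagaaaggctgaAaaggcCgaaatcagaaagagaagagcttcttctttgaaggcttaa
RPS27A: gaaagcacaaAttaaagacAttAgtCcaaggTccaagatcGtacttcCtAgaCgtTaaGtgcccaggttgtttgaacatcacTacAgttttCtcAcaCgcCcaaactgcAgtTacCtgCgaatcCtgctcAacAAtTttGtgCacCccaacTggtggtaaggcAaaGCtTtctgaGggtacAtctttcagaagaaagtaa
RPS27B: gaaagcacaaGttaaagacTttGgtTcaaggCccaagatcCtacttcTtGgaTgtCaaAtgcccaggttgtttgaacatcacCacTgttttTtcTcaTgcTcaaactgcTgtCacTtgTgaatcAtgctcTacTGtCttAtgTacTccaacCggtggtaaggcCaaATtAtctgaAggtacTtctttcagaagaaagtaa

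The Rps24 windows differed at 5 positions, written as RPS24A base, position from the 5′ end of the window and RPS24B base: C149T, G161A, T170C, G173A and C194T. The first 148 bases of the Rps24 windows were thus the same in both copies. The Rps6 windows differed at 2 positions (G155A and T161C, from RPS6A to RPS6B) and the Rps4 windows at 3. The Rps27 windows differed at 36 positions, and their longest shared run was 23 bases. In 54 members the window was wholly coding by the R64 annotation. The windows of RPS30A and RPS30B held 189 coding bases and 11 bases of their intron, and the ORFs of RPS29A and RPS29B are only 171 bases long. The window of RPS27A overlapped the opposite-strand ORF YKL156C-A by 80 bases, and reads of the 2 cannot be told apart where counting ignores strand.

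The small-subunit genes spanned a wide range of levels. Their median of mean levels was 516.5 CPM, beside 545 CPM for the 81 large-subunit ribosomal protein genes, 122 CPM for 48 small-subunit assembly factors and 87.8 CPM for 22 regulators of ribosomal protein genes. Of the 56 members, 30 ranked in the top 660 of all ORFs by mean level, and together they held from 2.44% to 3.64% of all counts in a library. In bulk RNA a lower level cannot be separated into fewer cells and less RNA per cell. Levels are given over windows of the same length, apart from the short RPS29A and RPS29B, so genes are set side by side. The ceiling, the intron bases in the windows of RPS30A and RPS30B and the unknown split of reads between close copies limit such comparisons.

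**Figure D1:**
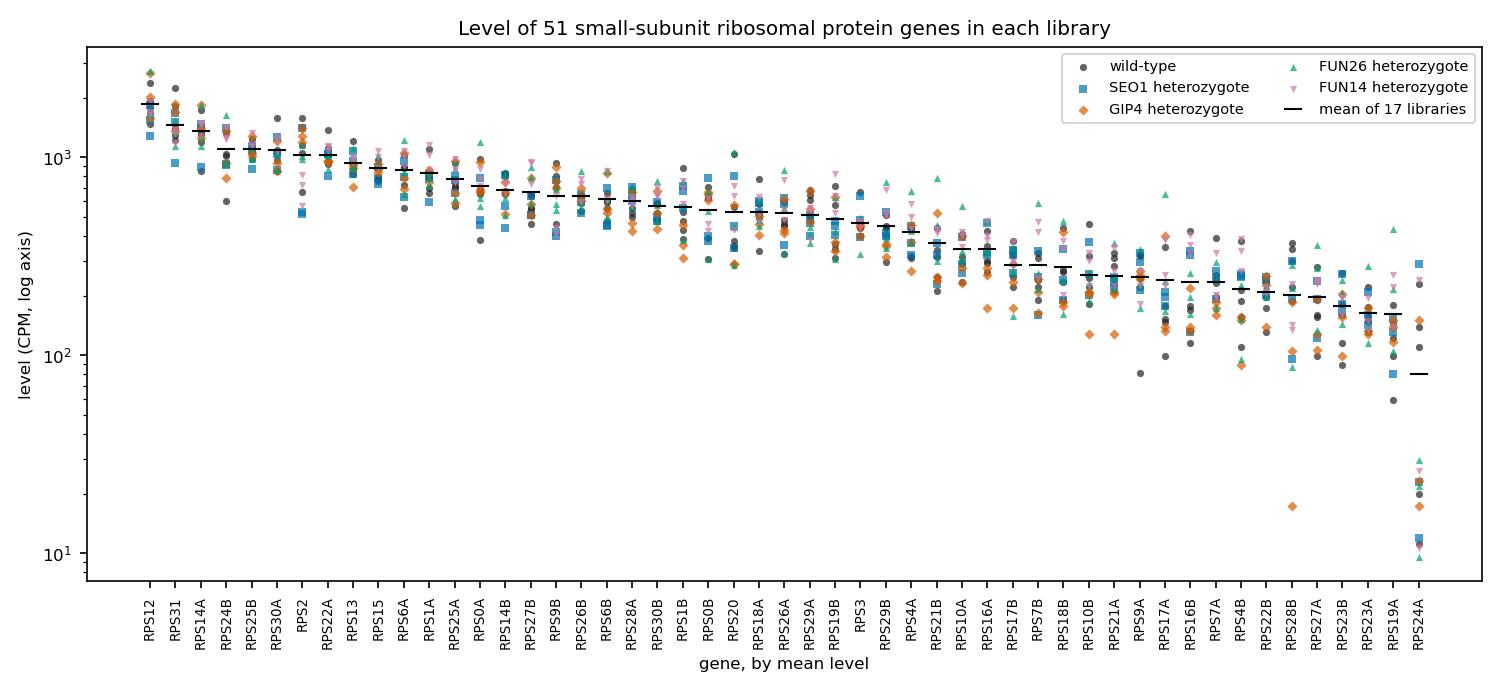
Level of 51 of the genes in each of 17 libraries, in CPM on a log axis, ordered by mean level (black dash). Colours and shapes give the group. The means run from 1851 CPM for RPS12 to 80.0 CPM for RPS24A, which has the widest scatter. For each gene the mutant libraries, pooled over strains, overlap the wild-type libraries.

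Of the 8 single-copy genes, RPS3 lay below the median of the set and RPS20 close to it. RPS12 (YOR369C), a protein of the subunit's beak, had a mean of 1851 ± 398 CPM (SD, n = 17) and ranked 14 among all ORFs. RPS31 (YLR167W), which is made as a fusion to ubiquitin, stood at 1463 ± 316 CPM. RPS2 (YGL123W, 1028 ± 341 CPM) and RPS3 (YNL178W, 465 ± 81.9 CPM) encode proteins at the entry of the messenger RNA channel, and RPS15 (YOL040C, 885 ± 97.2 CPM) encodes a protein near the decoding site. RPS13 (YDR064W) stood at 935 ± 117 CPM and RPS20 (YHL015W), a protein of the subunit's head, at 530 ± 248 CPM. The 8 single-copy genes had a median of 982 CPM and the 48 duplicated genes a median of 436 CPM. The summed level of a pair had a median of 833 CPM over the 24 pairs, with a range from 341 CPM for Rps23 to 2046 CPM for Rps14. RPS14A (YCR031C), at 1361.5 ± 275 CPM, was high among the duplicated genes, as was RPS24B (YIL069C) at 1098 ± 271 CPM. Toward the other end stood RPS24A (YER074W, 80.0 ± 94.3 CPM), RPS19A (YOL121C, 161 ± 86.7 CPM) and RPS23A (YGR118W, 164 ± 42.4 CPM). Among these, RPS19A and RPS23A differed by less than their spread.

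Members with an intron in their coding sequence had a lower median level than those without. Of the 48 duplicated genes, the 35 with an intron had a median of 292 CPM and the 13 without had 593 CPM. No test was made of this split. The GC content of the windows ran from 36.0% to 51.0% and had a Spearman correlation of 0.117 with the mean level across the 56 genes, which are not independent replicates.

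RPS12 came near the ceiling of the table. In wild-type replicates 1 to 6 it had counts of 165.5, 168.5, 90, 173.5, 178.5 and 144.5. Its counts were 154.5, 97 and 169.5 in the SEO1 strain, 178.5, 172.5 and 154 in the GIP4 strain, 167, 180 and 125 in the FUN26 strain, and 159.5, 110 and 146.5 in the FUN14 strain. The lowest of these, 90, was in wild-type replicate 3, which had a total count of 66764.5. Of the 1008 member values 7 reached 180, 1 of them of RPS12, and none reached the ceiling. Over all ORFs, 113 of 118908 values reached 180. By gene, 2 of the 56 members and 21 of the 6606 ORFs had at least 1 such value. Of the 56 members, 45 never exceeded 100. Between the shallowest library (FUN26 heterozygote replicate 3, total 52293.5) and the deepest (SEO1 heterozygote replicate 3, total 132618) the total rose 2.54-fold. The median ratio of counts between them was 2.83 over tested ORFs and 1.85 over members, with 41 of the 56 below the ratio of totals.

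Pairs of paralogs ranged from nearly even to strongly unequal, and the order of the copies held in every library for some pairs but not for others. The A copy was higher on average in 13 pairs and the B copy in 11. In 12 pairs the same copy was higher in all 18 libraries (A in 7, B in 5), in 11 pairs the order changed between libraries, and in the Rps6 pair the A copy was higher in 17 libraries and level in 1. The mean log2 ratio exceeded 2-fold in 8 pairs and 4-fold in 2. The higher copy of a pair had a median of 595.5 CPM and the lower a median of 244 CPM.

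**Figure D2:**
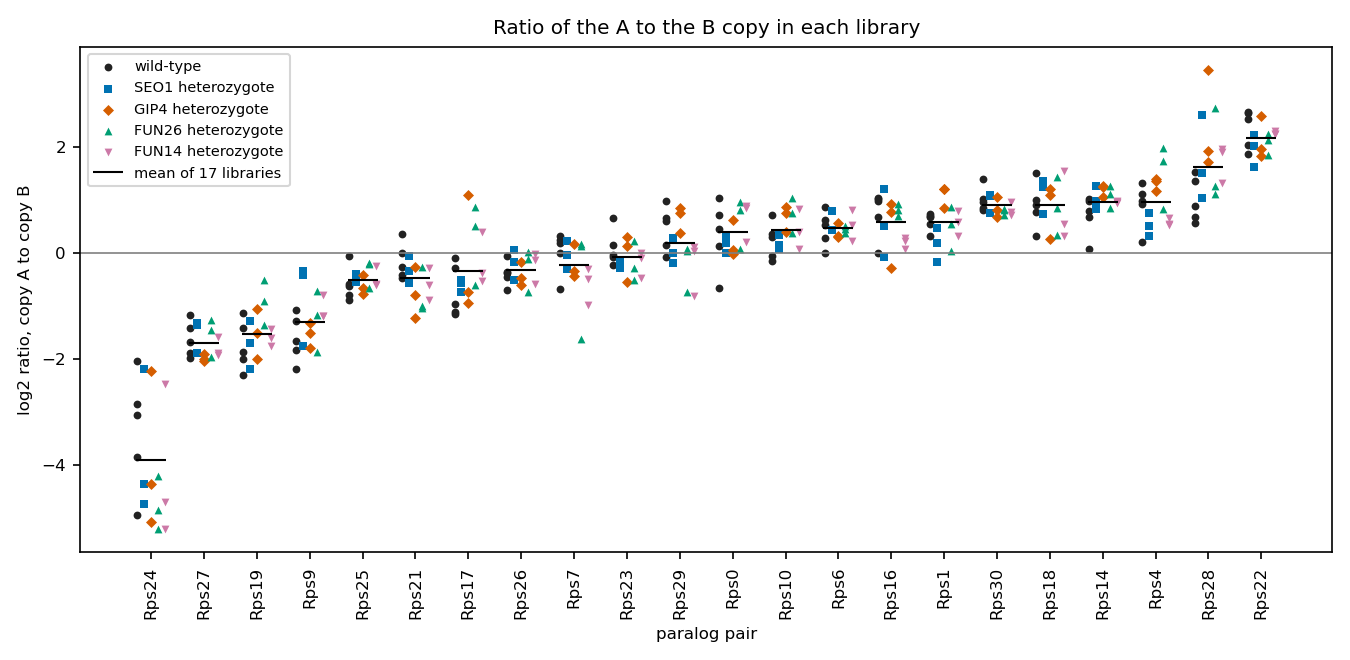
Log2 ratio of the level of the A copy to that of the B copy in each of 17 libraries, for 22 pairs in order of their mean ratio (black dash). Values above 0 mean more of the A copy. Rps24 lies lowest, at a mean of −3.89 with a range from −5.20 to −2.03, and Rps22 highest at 2.18. No pair separates the mutant libraries, pooled over strains, from the wild-type libraries.

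Rps22 showed the largest excess of an A copy, with RPS22A (YJL190C) at 1021 ± 127 CPM and RPS22B (YLR367W) at 208 ± 34.0 CPM, a log2 ratio of 2.18 ± 0.31 (SD, n = 17). RPS22B is a gene with an intron also ahead of its start codon. Rps28 lay in the same direction, with a log2 ratio of 1.63 ± 0.76. RPS28A (YOR167C) stood at 598 ± 84.7 CPM and RPS28B (YLR264W), whose protein takes part in the decay of its own messenger RNA, at 201.2 ± 97.5 CPM. The B copy led in Rps27 (−1.69 ± 0.30) and Rps19 (−1.53 ± 0.47), whose protein is needed for maturation of the small-subunit RNA. In Rps9 (−1.30 ± 0.53) the B copy was also more than 2-fold higher. The most even pairs were Rps23 (−0.08 ± 0.31), Rps29 (0.19 ± 0.50), Rps7 (−0.22 ± 0.52) and Rps26 (−0.31 ± 0.26). RPS23A and RPS23B encode a protein of the decoding centre. In none of the 24 pairs did the ratios of the 12 mutant libraries, pooled over strains, lie wholly apart from those of the 5 wild-type libraries. Strain by strain, the GIP4 range lay above the wild-type range in Rps1 (0.85 to 1.21 against 0.31 to 0.74). The same held in Rps14 (1.06 to 1.28 against 0.08 to 1.02) and Rps28 (1.72 to 3.45 against 0.57 to 1.54). All other pairs and strains overlapped wild-type. With 24 pairs, several strains and few libraries in each group, some ranges lie apart by chance. These pairs were picked after their values were seen, and no ratio was tested between groups.

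How reads with more than 1 match were assigned is not given in the sources used here, and multiples of 0.5 that are not whole made up 24.9% of the member values and 6.98% of all values. Across the 24 pairs the number of differing bases had a Spearman correlation of −0.142 with the size of the log2 ratio and of 0.150 with the summed level. The levels of copies with few differing bases (such as Rps6, Rps4 and Rps24, each with at most 5) are uncertain as a split, while their sums are less so.

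RPS24A was the least steady member, with an SD of 1.19 in log2 CPM over the libraries. In wild-type replicates 1 to 6 its counts were 4, 18, 8.5, 1, 2 and 14, against 1, 18 and 3 in the SEO1 strain, 17, 2 and 1 in the GIP4 strain, 3, 1 and 1 in the FUN26 strain, and 1, 16 and 2 in the FUN14 strain. The counts fell into 12 libraries with 1 to 4, 5 libraries with 14 to 18 and a single value between, and these bounds were chosen after the values were seen. High and low libraries occurred within the wild-type, SEO1, GIP4 and FUN14 groups alike. Its partner RPS24B had 102.5, 83.5, 81.5, 93.5, 60.5 and 61.5 counts in wild-type and from 75.5 to 121.5 in the mutant libraries, with no such gap. Even wild-type replicates 1 and 2, which matched within noise over all ORFs, differed here (4 against 18), a z of −3.01 that ranked 8 among 2513 ORFs. RPS24B differed in the opposite direction between them (102.5 against 83.5), a z of 2.03 that ranked 86, and the sum of the copies was 106.5 and 101.5.

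**Figure D3:**
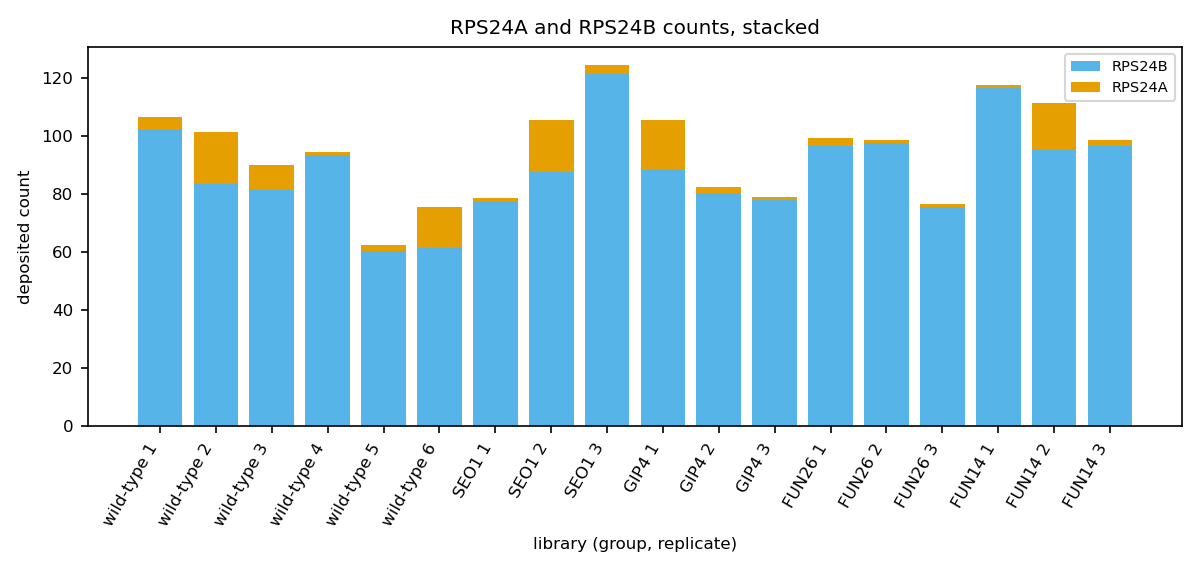
Deposited counts of RPS24B (blue) with those of RPS24A stacked on top (orange) in each of the 18 libraries. RPS24A adds from 1 to 18 counts, with 14 or more in 5 libraries spread over 4 groups, while RPS24B holds between 60.5 and 121.5.

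RPS28B was also among the most variable members, with an SD of 0.81 in log2 CPM, and RPS25B, RPS15 and RPS22A were the steadiest (0.15, 0.15 and 0.17). RPS25B ranged from 874 to 1320 CPM and RPS15 from 729 to 1081 CPM over the 17 libraries, although the totals of these libraries differed 2.54-fold.

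No small-subunit gene passed the test in any heterozygote against wild-type, by edgeR's quasi-likelihood test with Benjamini-Hochberg adjustment over 2856 ORFs and a threshold of 0.05. The count of members called was 0 of 56 in the SEO1 heterozygote, where 0.14% of tested ORFs were called, 0 for GIP4 (0.28%), 0 for FUN26 (0.21%), 0 for FUN14 (0.315%) and 0 for the mean of the 4 strains (0.385%). An F test among the 4 strains called 0 members and 0% of the ORFs. At an unadjusted p under 0.05 the counts in the same order were 0, 1, 2, 4, 1 and 2 of 56, against 3.92%, 4.83%, 4.34%, 16.7%, 6.48% and 10% of tested ORFs. DESeq2 also called 0 members in each of these comparisons, where it called 0.245%, 0.35%, 0.21%, 1.68%, 0.42% and 0.0775% of tested ORFs, the last by a likelihood ratio test. The 4 contrasts share the wild-type libraries, so their values are not independent of each other.

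**Figure D4:**
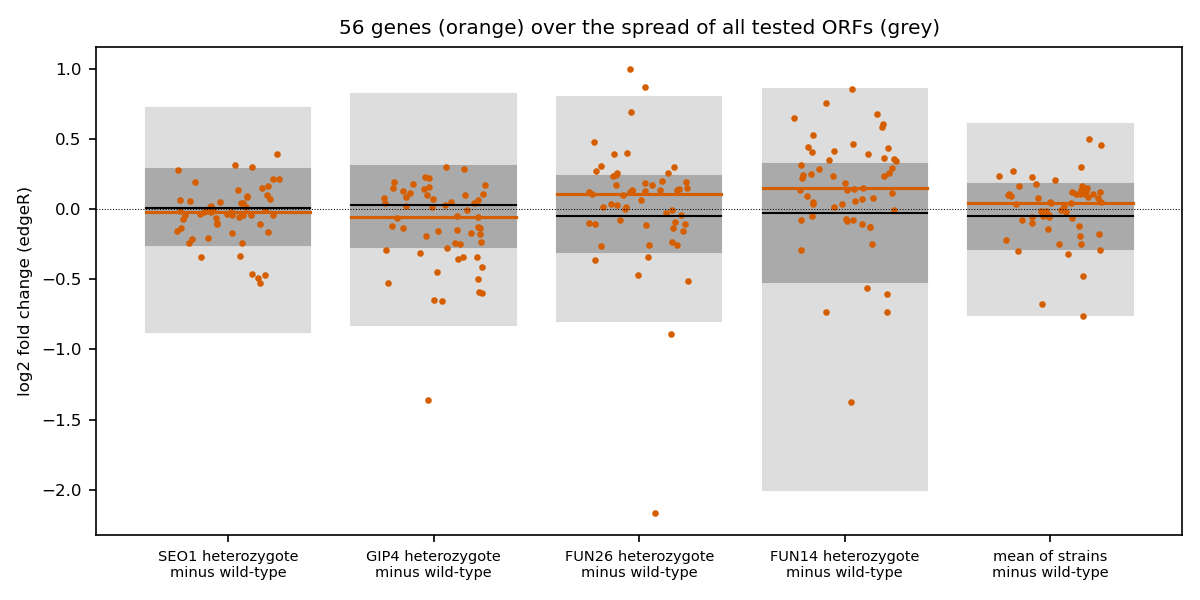
Log2 fold change (edgeR) of each of the 56 genes (orange points, orange line at the median) in 5 comparisons with wild-type. Grey boxes span the middle 50% and 90% of the 2856 tested ORFs, with a black line at their median. The member medians lie between −0.06 and 0.15, most points fall inside the outer box, and the lowest point is RPS24A in the FUN26 heterozygote at −2.16.

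The median log2 fold change of the members was −0.02 for the SEO1 heterozygote (0.01 over all tested ORFs), −0.06 for GIP4 (0.03), 0.10 for FUN26 (−0.05), 0.15 for FUN14 (−0.03) and 0.04 for the mean of the strains (−0.05). Values above 0 were found for 22, 25, 35, 40 and 31 of the 56 in that order. Over all tested ORFs 50.5%, 53.0%, 45.1%, 47.9% and 44.2% were above 0. Without FUN26 heterozygote replicate 3, the shallowest library, the FUN26 median was −0.11. The 73 tested large-subunit genes gave medians of −0.06, 0.01, 0.06, 0.11 and 0.02, and the 29 tested assembly factors 0.48, −0.24, 0.17, 0.53 and 0.16. Neither list, nor the 12 tested regulators, had a gene called by edgeR in any of the comparisons, where the same percentages of all ORFs apply.

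RPS28B had the smallest p in the GIP4 heterozygote. Its level was 186, 105 and 17.4 CPM in that strain and 301, 343, 222, 368 and 189 CPM in wild-type (replicates 1 and 2 averaged, then 3 to 6). All 3 lay below the 5 of wild-type, the highest by a narrow margin, and the lowest rested on 1 count. The log2 difference was −1.36 ± 0.50 (SE), with an edgeR adjusted p of 0.827. RPS28B was also first for the mean of the 4 strains, at −0.76 ± 0.33 with an edgeR adjusted p of 0.686. Its level rose with the total of the library (Pearson r = 0.597 over 17 libraries), and with the log2 total in the fit, an alternative added after the data were seen, the GIP4 difference was −1.61 with an edgeR adjusted p of 0.161. In the GIP4 heterozygote the next members by p were RPS21A (−0.60) and RPS10B (−0.65), each with an adjusted p of 0.942.

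In the FUN14 heterozygote the member with the smallest p was RPS27B (YHR021C), a zinc-ribbon protein gene, at 733, 939 and 945 CPM against 546, 653, 639, 557 and 460 CPM in wild-type. All 3 values lay above the 5 of wild-type. Its log2 difference was 0.61 ± 0.22 (SE), with an edgeR adjusted p of 0.187. RPS2 was at 818, 566 and 725 CPM against 1421, 670, 1055, 1149 and 1576 CPM, a log2 difference of −0.74 ± 0.31 with an edgeR adjusted p of 0.250, and wild-type replicate 3 fell within the range of the strain.

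In the SEO1 heterozygote the members with the smallest p were RPS9B (−0.47 ± 0.27), RPS2 (−0.53 ± 0.31) and RPS29A (−0.34 ± 0.23), each with an edgeR adjusted p of 0.994. RPS2 was at 1411 CPM in SEO1 replicate 1 and at 528 and 517 CPM in replicates 2 and 3. Without replicate 1 the edgeR adjusted p of RPS2 was 0.0396. That fit is 1 of 18 with a library left out, and its share of all ORFs called is not given here. It drops the SEO1 library that ran against the difference and leaves only replicates 2 and 3, so it is no separate support. In the FUN26 heterozygote they were RPS19A (1.00 ± 0.43), RPS29A (−0.51 ± 0.23) and RPS21B (0.69 ± 0.34), each with an adjusted p of 0.980. RPS24A had the lowest log2 difference there, −2.16 ± 1.28 on 3, 1 and 1 counts, with an edgeR adjusted p of 0.980. RPS19A was at 217, 105 and 435 CPM there and at 123, 180, 144, 59.7 and 98.5 CPM in wild-type, and the groups overlapped. For the mean of the strains RPS29A (−0.29) and RPS27B (0.27) followed RPS28B, with edgeR adjusted p of 0.726 and 0.734. Among the strains RPS4B had the smallest p of the F test, with an edgeR adjusted p of 0.463, and RPS1B an adjusted p of 0.539.

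Levels of the small-subunit genes varied together across libraries, and their sum tracked library depth. The summed level was 32022 ± 3210.5 CPM in wild-type (n = 5) and 32446 ± 4358 CPM in the mutant libraries (n = 12). Over the 17 libraries the sum had a Pearson correlation of −0.908 with the total count (Spearman −0.897), and of −0.862 without the 2 libraries farthest from the median total. The library totals enter both quantities, so no p is given. The shallowest library had the highest share of counts in the members in 4 of the 5 groups. After correcting each count for occupied positions, by a model with 2 positions more than the window has bases, the correlation was −0.688 (Spearman −0.645), and −0.446 without the same 2 libraries. The sum of the large-subunit genes had a correlation of −0.933 with the total, and of 0.982 with the sum of the small-subunit genes.

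**Figure D5:**
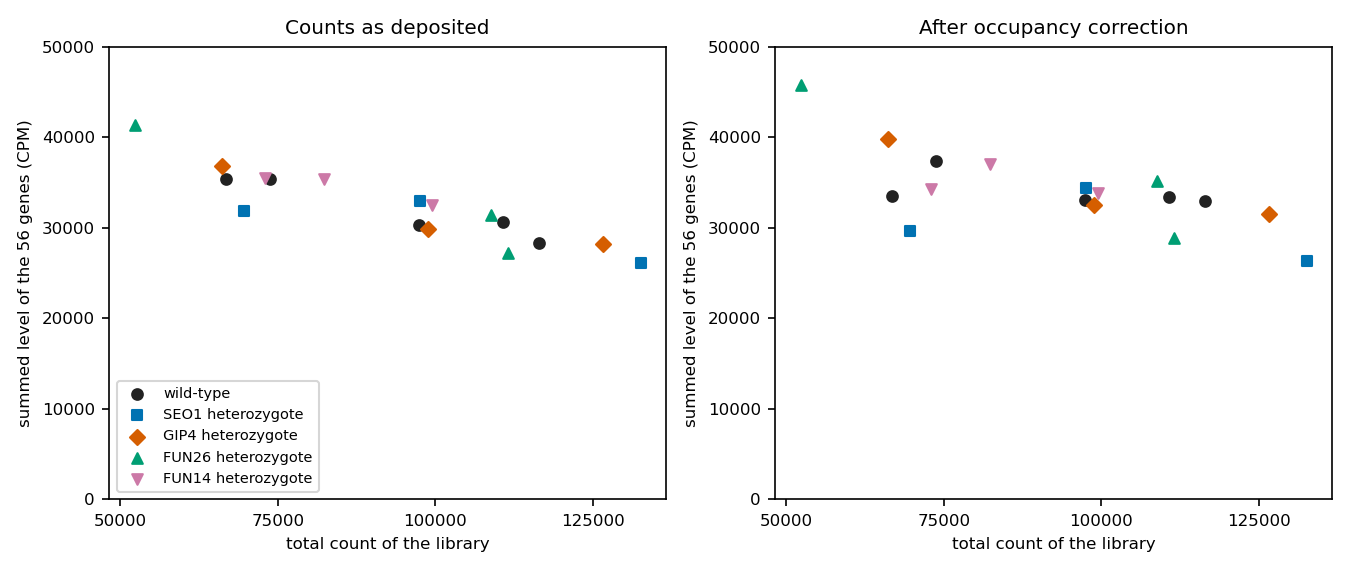
Summed level of the 56 genes (CPM) against the total count of each of 17 libraries, from the deposited counts (left) and after the occupancy correction (right). The sum falls as the total rises in the left panel (r = −0.908) and less closely in the right (r = −0.688), and the groups are mixed along the line.

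Gene by gene, 47 of the 56 members had a negative correlation with the log2 total and 9 a positive one, with a median of −0.454. The median over all tested ORFs was 0.0820 and 43.5% of them were negative. RPS20 had the most negative value (−0.896), and it ranged from 286 to 1066 CPM. RPS4A (−0.851) and RPS24B (−0.842) came next. RPS28B (0.597), RPS9A (0.435) and RPS22B (0.411) had the most positive values. The median correlation over the 1540 pairs of members was 0.257, against −0.0135 for pairs of tested ORFs. The 24 pairs of paralogs had a median of 0.487 and the 1516 other pairs 0.252. With the log2 total removed these medians were 0.332 and 0.108, and the matching median over pairs of tested ORFs was not computed. The first principal component of the members held 34.5% of their variance, correlated at −0.816 with the log2 total, and had 29.0% of its variance between groups.

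Within the set some members moved closely together and others in opposition, and the pairs of members named here were chosen after their values were seen. RPS2 and RPS9B correlated at 0.938 in log2 CPM over the 17 libraries (0.937 with the log2 total removed), RPS4A and RPS30B at 0.923 (0.775), and RPS2 and RPS16B at −0.895 (−0.917). No gene named here is a paralog of its partner. RPS16B was at 133, 425, 178, 169 and 115 CPM in wild-type, 130.4, 336 and 319 CPM in the SEO1 strain, 133, 139 and 217 CPM in the GIP4 strain, 197, 162 and 261 CPM in the FUN26 strain and 361, 402 and 324 CPM in the FUN14 strain. The library with the most RPS2, wild-type replicate 6 at 1576 CPM, had the least RPS16B, and the one with the least RPS2, SEO1 replicate 3 at 517 CPM, had 319 CPM of RPS16B. Among paralogs, RPS26A with RPS26B (0.788) and RPS27A with RPS27B (0.772) were close, and RPS29A with RPS29B were opposed (−0.302).

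The promoters were searched for a core of the Rap1 site, ACCCNNACA, on both strands of the 500 bases before the start codon in R64, with no other motif searched. It was found for 18 of the 56 members (32.1%), 36 of the 81 large-subunit genes (44.4%) and 324 of 5896 ORFs (5.5%). RPS7A, RPS16A and RPS16B were among those that had more than 1 match. Matches lay from 190 to 498 bases before the start codon, with a median of 341. The members with a match had a median level of 319 CPM and those without one 534 CPM. A match is a string of letters and no record of binding, and a missing match says only that these letters are not in the window.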

How the data were processed

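Poly-A RNA was sequenced, per the labels' protocols, and the authors deposited estimated counts of 6606 ORFs for 18 libraries. By the table's name these refer to the final 200 bases of an ORF, and 93% of the 118908 values were whole, with the rest multiples of 0.5. Bowtie 0.12.5 was among the tools, per the submitters' processing notes. Build, strandedness and the handling of multiply matching reads are not given in the sources used. Library totals ran from 52293.5 to 132618.

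Expected counts were rounded and tested with edgeR 4.0.16 (R 4.3.3): TMM factors, filterByExpr with a minimum count of 10, and 1 mean per group over 17 libraries, since 3 libraries per strain share 1 estimate of the spread. Calls required an adjusted p (Benjamini-Hochberg) under 0.05. CPM are per 1e6 of the TMM-scaled total, and log2 CPM and log2 ratios used a prior count of 2. Means are given with the SD and fold changes with the SE. Replicates 1 and 2 of wild-type were set against each other by chi-square under a model of occupied positions, over ORFs with means of 8 to 120 counts (p = 0.862 over 2513 ORFs, a test across ORFs and not across libraries), and were averaged. Symbols and sequences came from RefSeq R64, by systematic name, which matched all 56 members. Windows of paralogs were aligned with Biopython 1.88. The scripts were tested on simulated data.

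Named genes followed a rule: the 3 members with the smallest p per comparison, the 5 highest and 5 lowest levels, members with a count of 180 or more, the 6 most unequal and 4 most even pairs, the 3 most and least variable members and the 8 single-copy genes. Pairs with identical proteins, also in that rule, were not analysed here, and some members that the rule names are not reported here. Other named members were chosen after their values were seen. The members and gene lists were chosen with earlier results of these data known. Alternatives were DESeq2 1.42.0, its size factors in edgeR, no count filter, limma 3.58.1 on occupancy-corrected values, replicates 1 and 2 apart, the replicate number as a block, and each library left out.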

Additional observations from a re-analysis of the deposited data

Results flagged for a closer look

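Wild-type replicate 3 stood far from the other 4 wild-type libraries in 4 members, each time as the highest. RPS1A was at 1102.7 CPM there and at 662 to 788 CPM in the others. RPS1B, its paralog, was at 882 CPM against 386 to 528 CPM. RPS3 was at 670 CPM (669.77) against 400 to 451 CPM. RPS16B was at 425 CPM against 115 to 178 CPM. A gap to the nearest library above Dixon's limit for 5 values, as a share of the group's range, led to each of these entries. Among the 56 members tested chance alone gives about 1 in 20, a rate near the 4 of 56 flagged here. All 4 come from the same library, so they are not independent. The share flagged over all ORFs was not computed. Replicate 3 had a total count of 66764.5, the lowest of the wild-type libraries. Without it, edgeR called RPS16B higher in the FUN14 heterozygote, with an adjusted p of 0.0366. RPS16B had been flagged on the value of that same library, so this call is no separate support for a difference. The share of all ORFs called in that fit is not given here.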

How the results depend on the processing

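The count of members called was 0 in each comparison under DESeq2, its size factors in edgeR, no count filter, the occupancy correction with limma, replicates 1 and 2 apart and the log2 total as a covariate. The labels do not say that replicate numbers pair libraries. Deviations from group means correlated from −0.485 to 0.518 in 30 same-numbered pairs (median 0.231, 20 over 0.1) and from −0.63 to 0.597 in 96 others (median −0.057, 25 over 0.1), so a partial pairing is a hint from the data only, and the block was kept as an alternative. With the replicate block 1 member was called in the FUN14 heterozygote and 0 elsewhere, and calls over all ORFs rose from 4, 8, 6, 9, 11 and 0 to 15, 20, 22, 148, 52 and 2 (SEO1, GIP4, FUN26, FUN14, mean of strains, F test). For FUN14, DESeq2 called 48 ORFs and the fit with replicates 1 and 2 apart 23; without a count filter 22 were called for the mean of the strains. With each library left out in turn, 0 to 1 members were called for SEO1 and for the F test. In both the member was RPS2, without SEO1 replicate 1. For FUN14 the range was 0 to 1 (RPS16B, without wild-type replicate 3), and for GIP4, FUN26 and the mean of strains 0 to 0. The share of all ORFs called in these refits is not given here. The member median ranged from −0.07 to 0.10 (SEO1), −0.15 to 0.03 (GIP4), −0.11 to 0.23 (FUN26), 0.11 to 0.26 (FUN14) and 0.00 to 0.12 (mean of strains), and for FUN26 it was −0.12 (−0.115) without the 2 libraries farthest from the median total, an alternative added after the data were seen. The cause was not tested. Pairs over 2-fold numbered 8 to 10 with a library left out, 12 after the occupancy correction and 9 with a prior count of 0.5. Of 504 alternative values of single paralog ratios, 501 moved by less than the spread between libraries. The exceptions came under the occupancy correction, with 1.28 for Rps14, 2.49 for Rps22 and 1.12 for Rps30. Depth limits the weakest members most, since RPS24A had between 1 and 18 counts. The ceiling limits high members such as RPS12. The occupancy correction also moved ratios of pairs with lower counts, at most 141 in RPS14A, 107 in RPS22A and 113 in RPS30A.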
